A study of Mus musculus with 18 samples.

Results

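Proteins enter and leave the nucleus bound to transport receptors, and 10 genes of this system were followed here through B cell differentiation: the transportins Tnpo1, Tnpo2 and Tnpo3, the importins Ipo5, Ipo7, Ipo9 and Ipo11, the adaptor Kpna2 with its partner Kpnb1, and the exportin Xpo1. Tnpo1 and Ipo11 were selected on their expression in plasma cells, where the study named them as lower in Dnmt3-deficient mice, so the genotype difference in those cells is a description. The other 8 are related receptors. All 10 were found among the 21761 genes of the table, and all 10 were among the 11522 genes tested. RNA was sequenced from 3 cell types in 2 genotypes, with 3 libraries per group and 18 in all. Naive B cells (nB) were B220+ Fas- GL7- and came from lymph nodes of naive mice. Germinal center cells (GCB) were sorted from lymph nodes as B220+ Fas+ GL7+ PE+, and bone marrow plasma cells (BMPC) were sorted as CD138+. GCB and BMPC were taken 30 days after immunization with phycoerythrin (PE). Every mouse carried Dnmt3afl/fl and Dnmt3bfl/fl on a B6;129S4 background. Dnmt3-deficient mice also carried Cre, expressed in B lineage cells and not in the other cells of these mice, and their Dnmt3-sufficient littermates carried no Cre. Each GCB sample pooled a pair of mice, and both sexes were present in every group.

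Receptors of the importin beta family bind their cargo in the cytoplasm, pass through the nuclear pore by touching its nucleoporins, and release the cargo when the small GTPase Ran, loaded with GTP, binds them inside the nucleus. Exportins work the other way round and bind cargo together with Ran-GTP. Kpna2 (importin alpha) is an adaptor that recognizes the classical nuclear localization signal and travels with Kpnb1 (importin beta). Tnpo1 and its close relative Tnpo2 carry RNA-binding proteins such as Hnrnpa1 and Taf15, and Tnpo3 carries splicing factors of the SR family. Ipo5, Ipo7 and Ipo9 carry ribosomal proteins and histones among other cargo, and Ipo11 carries ubiquitin-conjugating enzymes of the Ube2e family and the ribosomal protein Rpl12. Xpo1 (CRM1) exports proteins with a leucine-rich signal.

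Expression is given as FPKM, the reads of a gene divided by its exon length and by the reads counted on all listed genes, which allows levels of different genes to be compared. Counted reads per library ranged over 6692516 to 8987922 for nB, 7644544 to 8903872 for GCB and 1355231 to 3803197 for BMPC. The 10 most abundant genes took 4.51% to 5.73% of the reads of an nB or GCB library and 14.8% to 25.8% of those of a BMPC library, and 2991 to 4615 of the tested genes were at 0 in a BMPC library against 680 to 1252 in an nB or GCB library. The 6 plasma cell markers summed to 17008 to 48114 FPKM in BMPC, 38.4 to 173 in nB and 582 to 917 in GCB. Jchain alone measured 16189 to 46609 FPKM in BMPC and 562 to 882 in GCB. The 7 neutrophil markers were at 0 in all nB and GCB libraries and summed to 9.37 to 582 FPKM in BMPC. The 4 measured erythroid markers summed to 149 to 2194 FPKM in BMPC and to at most 11.6 in GCB. In nB the erythroid markers summed to 0.468 to 1.42 FPKM in sufficient and 22.5 to 218 in deficient libraries. The 6 T cell markers summed to 53.5 to 198 FPKM across BMPC libraries. Their sums were 28 to 114 FPKM in nB libraries and 0.569 to 5.56 in GCB libraries. These markers did not move together. Median levels in nB and BMPC were 7.65 and 39.4 FPKM for Cd3d, 14.1 and 97.4 for Cd3g, and 11.1 and 13.2 for Cd3e. Cd4, Cd8a and Cd8b1 went the other way, with medians of 2.28, 1.74 and 14.1 FPKM in nB and 0 in BMPC. In BMPC, Cd4 reached at most 0.111 FPKM and Cd8a at most 0.504, and Cd8b1 was at 0 in all libraries. The 5 macrophage markers summed to 40.5 to 168 FPKM across BMPC libraries, beside 1.70 to 73.9 in nB libraries and 11 to 19.7 in GCB libraries. Cd68 alone measured 40.5 to 158 FPKM in BMPC, where C1qa was at 0 in all libraries. The part of these other cells in the BMPC values was not tested. In sorted bulk samples, fewer cells with an RNA and less RNA per cell cannot be told apart.

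Tnpo1 and Ipo11 lie on the same chromosome. On build mm9 the annotation places Tnpo1 at chr13:99608974-99696339 and Ipo11 at chr13:107584519-107726995, both on the minus strand and 7.89 Mb apart. Kpna2 lies at chr11:106849943-106860855. Dnmt3a and Dnmt3b methylate CpG sites, and B lineage cells of the Dnmt3-deficient mice lacked their function. The promoters of these 3 genes are therefore shown with each CpG in capitals. They run from 250 bases before to 50 after the start of transcription (RefSeq, build GRCm38.p6), at chr13:98926335-98926634 for Tnpo1 (the upstream one of 2 listed), chr13:106936909-106937208 for Ipo11 and chr11:106999476-106999775 for Kpna2, all on the minus strand and read 5′ to 3′.
Tnpo1: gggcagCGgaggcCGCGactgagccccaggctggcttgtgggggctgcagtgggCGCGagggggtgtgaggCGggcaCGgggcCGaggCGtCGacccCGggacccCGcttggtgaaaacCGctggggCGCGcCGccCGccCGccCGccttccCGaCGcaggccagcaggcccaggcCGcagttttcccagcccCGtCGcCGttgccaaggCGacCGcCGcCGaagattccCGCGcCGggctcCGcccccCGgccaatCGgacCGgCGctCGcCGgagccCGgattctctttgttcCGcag
Ipo11: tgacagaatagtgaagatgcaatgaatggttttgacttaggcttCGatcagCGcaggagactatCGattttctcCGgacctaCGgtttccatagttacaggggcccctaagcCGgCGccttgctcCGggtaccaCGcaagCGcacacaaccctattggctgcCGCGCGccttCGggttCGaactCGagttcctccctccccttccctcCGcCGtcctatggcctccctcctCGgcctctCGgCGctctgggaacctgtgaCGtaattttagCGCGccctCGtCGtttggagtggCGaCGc
Kpna2: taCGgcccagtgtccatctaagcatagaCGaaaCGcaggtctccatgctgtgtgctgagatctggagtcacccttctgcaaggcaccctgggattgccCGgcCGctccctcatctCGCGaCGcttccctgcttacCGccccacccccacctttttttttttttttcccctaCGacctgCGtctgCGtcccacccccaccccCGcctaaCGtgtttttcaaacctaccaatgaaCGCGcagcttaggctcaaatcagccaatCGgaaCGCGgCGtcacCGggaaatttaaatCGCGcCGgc
The Tnpo1 promoter held 41 CpG, the Ipo11 promoter 28 and the Kpna2 promoter 24, against a median of 7 over 32851 promoters of the same length. High CpG content was shared by the other receptors, since 13 of the 14 promoters listed for the 10 genes were above that median, the exception being the second promoter of Ipo5 with 0 CpG. The letters CCAAT, searched on both strands, were found in 9 of these 14 promoters (2 of them overlapping windows of Ipo9) and in 37.4% of all promoters. TTTGAA was found in 3 of 14 (Tnpo2, Ipo7 and Kpna2) and in 17.9% of all promoters. Methylation of these promoters was not analysed here.

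Kpna2 was by far the most abundant of the 10 and followed the germinal center. Its lowest, median and highest levels were 105, 128 and 143 FPKM in nB, 1025, 1121 and 1181 in GCB, and 162, 362 and 562 across BMPC. The 3 cell types did not overlap, with GCB highest and nB lowest, and in GCB Kpna2 ranked 43 among the 11522 tested genes by mean FPKM. To pass, a gene needed a limma adjusted p no higher than 0.05 together with a log2(FPKM + 1) difference of 1 or more in size. On that scale, averaged over both genotypes, Kpna2 rose by 3.15 (SE 0.20) from nB to GCB (limma, adjusted p = 5.98e-09) and was 1.72 lower (SE 0.20) in BMPC than in GCB (limma, adjusted p = 3.12e-06). BMPC still stood 1.43 (SE 0.20) above nB (limma, adjusted p = 1.77e-05). Kpna2 made up a median of 49.9% of the summed FPKM of the 10 receptors in nB, 83.7% in GCB and 84.9% in BMPC. The sum over 10 genes of dividing cells, including Mki67 and Top2a, followed the same order of cell types. It was 139 to 172 FPKM in nB, 1867 to 2073 in GCB and 388 to 707 across BMPC. Of the 10, 6 passed as higher in BMPC than in nB, and Mcm2, Mcm5, Bub1 and Aurkb did not pass. Of the 2054 bases of the Kpna2 transcript, 96.3% matched other places of the mm9 genome with at least 96% identity, so its counts may be split with or drawn from these copies.

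Kpnb1, the partner of Kpna2, changed less. It measured 13.4, 17.0 and 25 FPKM (lowest, median, highest) in nB, 26.8, 41.1 and 47.9 in GCB and 2.93, 15.3 and 24 across BMPC. All 6 GCB libraries were above all nB and all BMPC libraries, while nB and BMPC overlapped. Kpnb1 rose by 1.10 (SE 0.39) from nB to GCB (limma, adjusted p = 0.0438), a call kept in 12 of 28 alternatives (adjusted p from 0.000183 to 0.316). It was lost without any 1 of nB sufficient replicates 1 to 3, nB deficient 1 and 3, GCB sufficient 1 to 3, or GCB deficient 1 and 3. From GCB to BMPC Kpnb1 fell by 1.52 on the log2 scale (SE 0.39, limma, adjusted p = 0.00414). BMPC and nB differed by -0.42 (SE 0.39), which did not pass (limma, adjusted p = 0.376). Kpna2 thus exceeded Kpnb1 by a larger factor in GCB than in nB: median levels were 128 and 17.0 FPKM in nB, and 1121 and 41.1 FPKM in GCB.

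**Figure D1:**
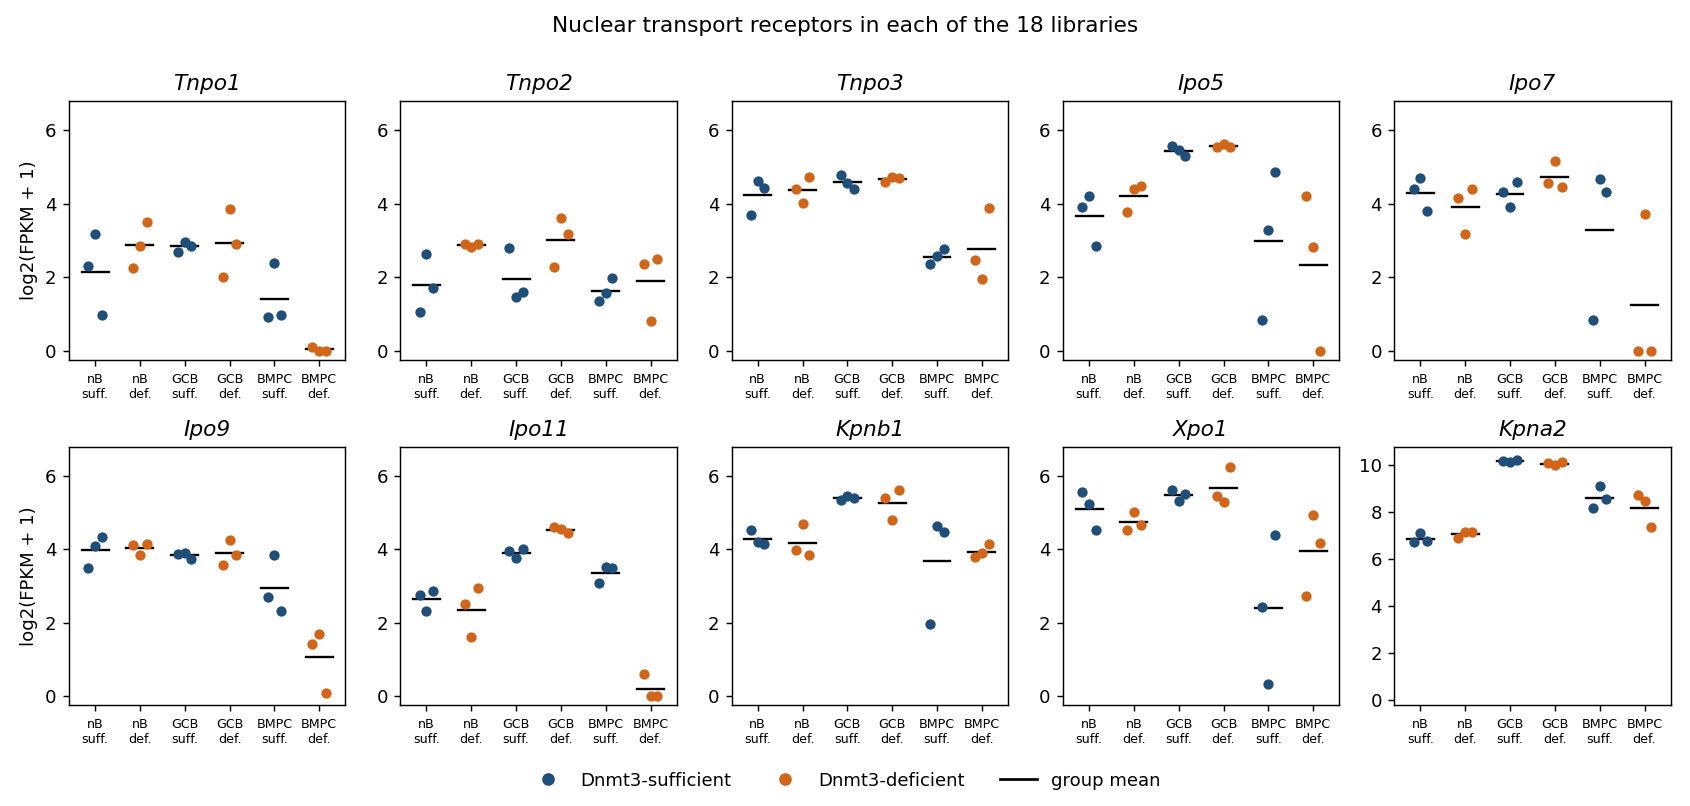
Level of each of the 10 receptors as log2(FPKM + 1), with 1 point per library, lines at the group means, and blue for Dnmt3-sufficient and orange for Dnmt3-deficient libraries. The Kpna2 panel has its own vertical scale, its 6 GCB libraries lie near 10.2, and the 3 deficient BMPC libraries of Tnpo1 and of Ipo11 lie at or near 0.

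Among the transportins, Tnpo1 was a gene of low level that was lower still in BMPC. In nB it measured 3.94, 8.05 and 0.956 FPKM in the 3 sufficient libraries and 3.81, 6.28 and 10.3 in the 3 deficient ones. In GCB the sufficient libraries measured 5.46, 6.79 and 6.29 FPKM and the deficient ones 3.0, 13.5 and 6.48. In BMPC the values were 0.894, 4.23 and 0.947 in the sufficient and 0.0751, 0 and 0 in the deficient libraries. The nB and GCB groups all overlapped, the deficient BMPC libraries lay below every other library, and the sufficient BMPC libraries overlapped with both nB groups. Averaged over both genotypes, Tnpo1 was 1.78 lower (SE 0.43) in BMPC than in nB on the log2 scale and 2.15 lower (SE 0.43) than in GCB. The deficient BMPC values that enter these averages chose the gene, so both are descriptions. With the Dnmt3-sufficient libraries alone the differences were -0.73 from nB (SE 0.65, limma, adjusted p = 0.403) and -1.42 from GCB (SE 0.65, limma, adjusted p = 0.137), and neither passed. Matches elsewhere in the genome, at up to 97.6% identity, covered 42.2% of the Tnpo1 transcript.

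Tnpo2 was also a gene of low level and was not tested against Tnpo1. It measured 1.08, 5.61 and 6.52 FPKM (lowest, median, highest) in nB, 1.76, 4.86 and 11.2 in GCB and 0.740, 2.46 and 4.69 across BMPC, and the 3 cell types overlapped. It passed in none of the 3 cell type comparisons, and the difference from GCB to BMPC was -0.72 with a 95% interval of -1.61 to 0.16, against a median of -0.66 over all tested genes. Tnpo3, the receptor of SR proteins, measured 12.0, 20.3 and 25.4 FPKM in nB and 20.3, 24.2 and 26.8 in GCB, with overlapping ranges. In BMPC it measured 2.88, 4.77 and 13.8 FPKM, with all 6 libraries below all GCB libraries. Tnpo3 was 1.65 lower (SE 0.33) in BMPC than in nB (limma, adjusted p = 0.000481) and 1.97 lower (SE 0.33) than in GCB (limma, adjusted p = 0.00012). Both calls held in all 28 alternatives run, including each genotype alone. Exons of Irf5 on the opposite strand overlap 4.01% of the exon bases of Tnpo3, and whether counting used strand is not stated.

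Ipo5, Ipo7 and Ipo9 were more scattered among BMPC than among nB or GCB libraries, with an SD of log2(FPKM + 1) over 6 libraries of 1.27 to 2.21 in BMPC and of 0.11 to 0.60 in the other cell types. Xpo1 (1.70) was scattered in BMPC as well. The SD of Ipo11 in BMPC (1.75) spans genotypes that lay apart, with means of 9.38 FPKM in sufficient and 0.17 in deficient libraries. Ipo9 also had no overlap between genotypes in BMPC. These SDs cover both genotypes and are not on the footing of an SD within a group. Within a group, the median SD of tested genes was 0.78 to 0.82 in BMPC and 0.27 to 0.41 in nB and GCB. Ipo5 measured 6.23 to 21.5 FPKM in nB and 38.7 to 48.4 in GCB, without overlap. Its difference of 1.57 (SE 0.65) from nB to GCB did not pass (limma, adjusted p = 0.0881). The fit used 1 spread per gene over all groups, and in BMPC Ipo5 ranged from 0 to 28.0 FPKM. The difference passed when only nB and GCB were fitted (1.57, limma, adjusted p = 0.00024), with a quality weight per library (1.56, limma, adjusted p = 0.000297), with voom (1.69, limma, adjusted p = 0.00131), and without BMPC sufficient replicate 1 (limma, adjusted p = 0.0415) or BMPC deficient replicate 3 (limma, adjusted p = 0.0312). From GCB to BMPC Ipo5 fell by 2.85 on the log2 scale (SE 0.65, limma, adjusted p = 0.00192), and all 6 BMPC libraries were below all GCB libraries. Against nB the difference was -1.27 (SE 0.65, limma, adjusted p = 0.107), and it passed without BMPC deficient replicate 1 (-1.74, limma, adjusted p = 0.025) or BMPC sufficient replicate 3 (-1.74, limma, adjusted p = 0.0253). Ipo7 measured 8.09 to 25 FPKM in nB, 14.2 to 35 in GCB and 0 to 24.6 across BMPC, where 2 libraries were at 0 and the ranges of all cell types overlapped. Its BMPC levels were 1.85 lower (SE 0.67) than in nB (limma, adjusted p = 0.0285) and 2.24 lower (SE 0.67) than in GCB (limma, adjusted p = 0.0118). The call against nB held in 17 of 28 alternatives (adjusted p from 0.00158 to 0.4) and was lost without nB sufficient replicate 1 or 2, nB deficient 1 or 3, BMPC sufficient 1, or BMPC deficient 1 or 3. Ipo9 overlapped between nB (10.4 to 19.1 FPKM) and GCB (11 to 18 FPKM), with a difference of -0.14 and a 95% interval of -0.91 to 0.63. It was 1.99 lower (SE 0.35) in BMPC than in nB (limma, adjusted p = 0.000176) and 1.85 lower (SE 0.35) than in GCB (limma, adjusted p = 0.000433). In the Dnmt3-sufficient libraries alone these differences were -1.02 (SE 0.47, limma, adjusted p = 0.12) and -0.88 (SE 0.47, limma, adjusted p = 0.195).

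Ipo11 was the second receptor, after Kpna2, that rose clearly in GCB. In nB it measured 5.74, 4.0 and 6.29 FPKM in the sufficient and 4.69, 2.09 and 6.70 in the deficient libraries. In GCB it measured 14.4, 12.7 and 15.3 FPKM in the sufficient and 23.5, 22.7 and 20.7 in the deficient libraries. All 6 GCB libraries were above all 6 nB libraries, and the rise of 1.72 (SE 0.30, limma, adjusted p = 0.000334) passed in each genotype alone, with 1.27 (SE 0.36, limma, adjusted p = 0.0465) in the sufficient and 2.18 (SE 0.45, limma, adjusted p = 0.0138) in the deficient libraries. In BMPC the sufficient libraries measured 7.42, 10.4 and 10.3 FPKM and the deficient ones 0.509, 0 and 0. The sufficient BMPC libraries were all above both nB groups, and the deficient ones all below them. A mean over both genotypes therefore describes neither: the difference of BMPC from nB was -0.72 (SE 0.30) over both and under the size needed to pass (-1.85 with a pseudocount of 0.1 and -2.20 with voom, both of which passed), 0.71 (SE 0.36, limma, adjusted p = 0.149) in the sufficient libraries alone and -2.16 (SE 0.45) in the deficient libraries alone. Likewise the difference of -2.45 (SE 0.30) from GCB to BMPC was -0.55 (SE 0.36, limma, adjusted p = 0.287) in the sufficient libraries alone and -4.34 (SE 0.45) in the deficient libraries alone. The deficient values are those the study's naming of Ipo11 drew on, so these differences are no separate evidence of it. No copy of the Ipo11 transcript was found elsewhere in the genome at 96% identity or more.

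Xpo1, the exportin, measured 21.9, 27.9 and 46.6 FPKM (lowest, median, highest) in nB, 38.4, 43.6 and 75.3 in GCB and 0.256, 11.4 and 29.8 across BMPC. The nB and GCB ranges overlapped, and all BMPC libraries were below all GCB libraries. Xpo1 did not pass from nB to GCB, with a difference of 0.65 (SE 0.53, limma, adjusted p = 0.415). It was 1.75 lower (SE 0.53) in BMPC than in nB (limma, adjusted p = 0.0107) and 2.41 lower (SE 0.53) than in GCB (limma, adjusted p = 0.0015). The BMPC libraries were far apart, from 5 to 377 reads, so the size of this fall is poorly fixed. In the Dnmt3-deficient libraries alone the difference from nB was -0.79 (SE 0.56) and did not pass (limma, adjusted p = 0.294).

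Counted over the 10 receptors, GCB against nB gave 3 higher (Kpna2, Ipo11 and Kpnb1) and 0 lower, where 9.47% of all tested genes passed as higher and 12% as lower. The median difference was 0.53 for the receptors and -0.13 for all tested genes. BMPC against nB gave 1 higher (Kpna2) and 5 lower (Tnpo1, Tnpo3, Ipo7, Ipo9 and Xpo1), against a background of 9.43% higher and 39.3% lower, so the count of lower receptors was near that of genes in general even with Tnpo1, chosen for its low BMPC values, among them. The medians were -1.46 and -0.79. BMPC against GCB gave 9 lower, every receptor but Tnpo2, and 0 higher, where 33.7% of all tested genes passed as lower and 7.72% as higher. The medians were -2.06 and -0.66, and scaling the libraries by median of ratios moved the median of all genes by 0.13 in this comparison. Tnpo1 and Ipo11 are among these 9 but were chosen for their low values in deficient BMPC, so nothing is read from their share in the count. With the Dnmt3-sufficient libraries alone, 3 of 10 receptors (Tnpo3, Kpna2 and Xpo1) passed as lower in BMPC than in GCB. In the same fit 2238 of all 11522 tested genes passed as lower.

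**Figure D2:**
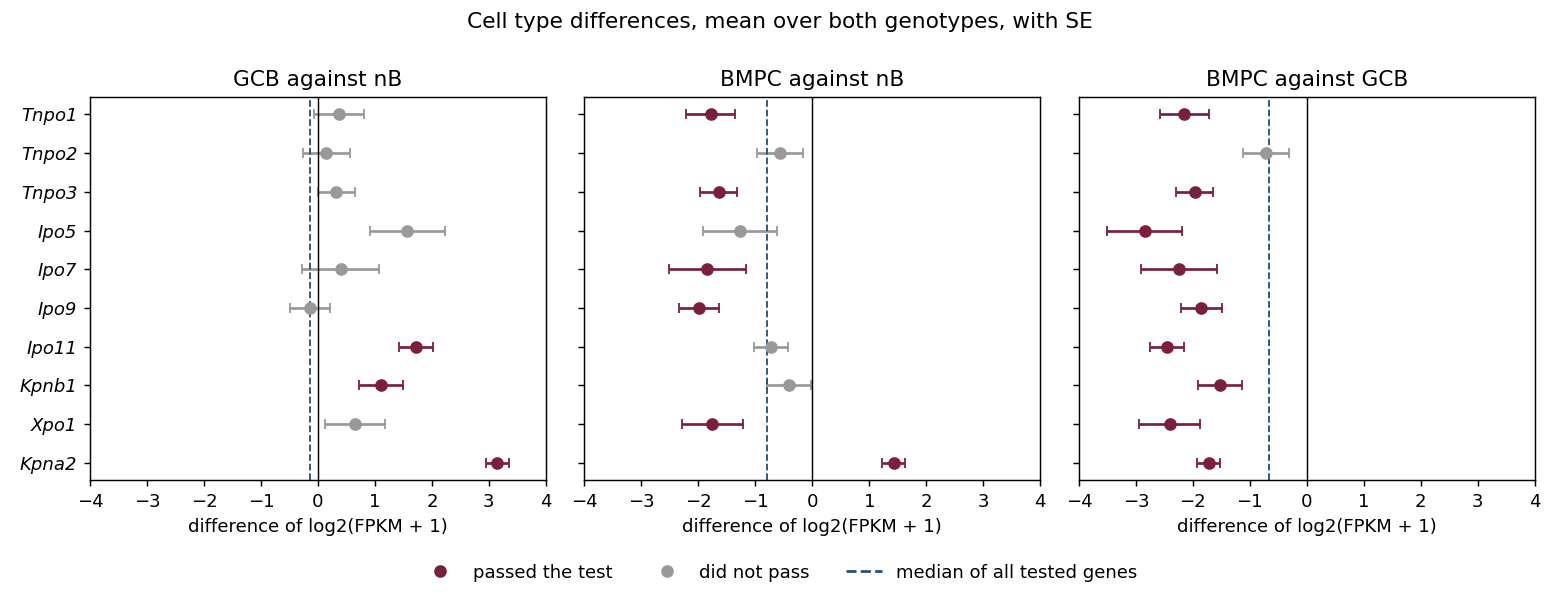
Difference of log2(FPKM + 1) between cell types for each receptor, averaged over both genotypes, with bars of 1 SE, dark points for receptors that passed and grey for those that did not. The dashed line is the median of all tested genes, at -0.13, -0.79 and -0.66 from left to right, and in the right panel all receptors except Tnpo2 passed to its left. Tnpo1 and Ipo11 were chosen for low values in deficient BMPC.

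Loss of Dnmt3 did not give a passing difference for any receptor in nB or GCB. In nB, 0 of 10 receptors passed, where 0.0521% of all tested genes (6 genes) did, and the differences, deficient minus sufficient, ran from -0.39 for Ipo7 to 1.08 for Tnpo2. No receptor had an unadjusted p under 0.05. The 6 genes that passed in nB included the globin genes Hbb-bs (4.67, SE 0.76, limma, adjusted p = 0.0286) and Hba-a2 (5.21, SE 0.82, limma, adjusted p = 0.0228). In GCB, 0 of 10 passed by limma and 0% of all tested genes did, with 124 genes at an unadjusted p under 0.05 and 2 genes called by voom on recovered reads. With GCB fitted alone, 724 genes had an unadjusted p under 0.05 by limma and 0 were called. In nB the unadjusted counts were 312 with all libraries fitted and 592 with nB alone. With all 18 libraries fitted, the GCB differences ran from -0.14 for Kpnb1 to 1.07 for Tnpo2. Tnpo2 was higher in the deficient libraries in both cell types, with 1.08, 5.16 and 2.25 against 6.52, 6.06 and 6.48 FPKM in nB and 5.90, 1.76 and 2.04 against 3.82, 11.2 and 8.13 FPKM in GCB. Its genotypes did not overlap in nB and overlapped in GCB, and the differences of 1.08 (SE 0.57) and 1.07 (SE 0.57) had 95% intervals of -0.17 to 2.34 and -0.18 to 2.32.

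Ipo11 was higher in deficient than in sufficient GCB in 3 of 3 libraries, at 20.7 to 23.5 against 12.7 to 15.3 FPKM. The means were 22.3 ± 1.44 and 14.1 ± 1.32 FPKM (SD, n = 3), and the difference of 0.63 (SE 0.42) on the log2 scale did not pass (limma, adjusted p = 1), with the spread again shared by all groups. Kpna2 was lower in deficient than in sufficient GCB in 3 of 3 libraries, at 1025 to 1118 against 1125 to 1181 FPKM, a difference of -0.10 (SE 0.28) with a 95% interval of -0.71 to 0.52. Such separation was common. In nB it was seen for 8.84% of tested genes and 1 of the 10 receptors, and in GCB for 10.6% of tested genes and 2 of the 10 receptors. The genotype difference was not shown to differ between GCB and nB for any receptor (interaction by limma, adjusted p = 1 for Ipo11, with a difference of 0.92 and an SE of 0.60).

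In BMPC the genotype comparison is the one that led to Tnpo1 and Ipo11 being named, and its values are given without a test. Counted reads were 2196198, 3803197 and 3629318 in the sufficient and 1632925, 1355231 and 2265945 in the deficient libraries. The 10 most abundant genes took 14.8% to 20.2% of these reads in the sufficient and 23.4% to 25.8% in the deficient libraries. The part of this in the genotype differences was not tested. Ipo11 measured 98, 238 and 225 reads in the sufficient libraries and 5, 0 and 0 in the deficient ones. At the sufficient mean of 9.38 ± 1.70 FPKM (SD, n = 3) and their own depths, the deficient libraries would have held 92.1, 76.4 and 128 reads. The same reckoning gives 110 and 153 reads for Ipo7 and 163 for Ipo5 in deficient libraries that also held 0. The difference was -3.16 (SE 0.42), the largest of the 10 receptors in size. Tnpo1 measured 16, 131 and 28 reads in the sufficient and 1, 0 and 0 in the deficient libraries, where 26.9, 22.3 and 37.3 reads would have been held at the sufficient mean. With each deficient library set to 3 reads, the sufficient mean of 2.02 FPKM was 9.2-fold higher. That mean rests on the library at 4.23 FPKM, and without it, an alternative added after the data were seen, the fold was 4.19. The floor of 3 reads covers counting error alone. Ipo5 and Ipo7 were at 0 in libraries where far more reads would have been held, so these folds are no firm bounds. The difference on the log2(FPKM + 1) scale was -1.39 (SE 0.61). Ipo9, which the study's choice did not name, measured 5.51, 13.4 and 4.01 FPKM in the sufficient and 1.69, 2.26 and 0.0676 in the deficient libraries, a difference of -1.88 (SE 0.50). These 3 receptors had no overlap between genotypes, as had 10.3% of tested genes.

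In the other 7 receptors the genotypes overlapped. Kpna2 (287, 562 and 372 against 430, 353 and 162 FPKM), Kpnb1 (2.93, 24 and 21.0 against 12.7, 13.9 and 16.8 FPKM) and Tnpo3 (4.13, 4.96 and 5.78 against 4.58, 2.88 and 13.8 FPKM) overlapped between sufficient and deficient BMPC. Tnpo2, the relative of Tnpo1, measured 1.55, 2.00 and 2.93 against 4.17, 0.740 and 4.69 FPKM, with 2 deficient libraries above all sufficient ones. Ipo7 was at 0 in 2 deficient libraries and at 12.2 FPKM in the other one, against 0.802, 24.6 and 19.1 in the sufficient libraries, a difference of -2.05 (SE 0.95). Ipo5 ran from 0.791 to 28.0 in the sufficient and from 0 to 17.7 in the deficient libraries. Xpo1 had the only difference above 1 in the other direction, at 1.56 (SE 0.75), from 4.43, 0.256 and 20.2 against 5.60, 29.8 and 17.2 FPKM. By the thresholds used elsewhere, Ipo9 and Ipo11 were called in this comparison, as were 3.98% of all tested genes. Ipo11 was chosen on it and nothing is read from this count, which was 0 with BMPC fitted alone and 0 with a quality weight per library. The erythroid markers summed to 1160 to 2194 FPKM in sufficient and 149 to 797 in deficient BMPC, the macrophage markers to 40.5 to 87.7 and 98.4 to 168, and the plasma cell markers to 17008 to 26871 and 31160 to 48114, none of them overlapping. Cd68 (40.5 to 158 FPKM over the BMPC libraries) made up most of the macrophage sums, and Jchain (16189 to 46609 FPKM) most of the plasma cell sums. The part of the erythroid, macrophage and plasma cell differences in those of Ipo11, Tnpo1 and Ipo9 was not tested.

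**Figure D3:**
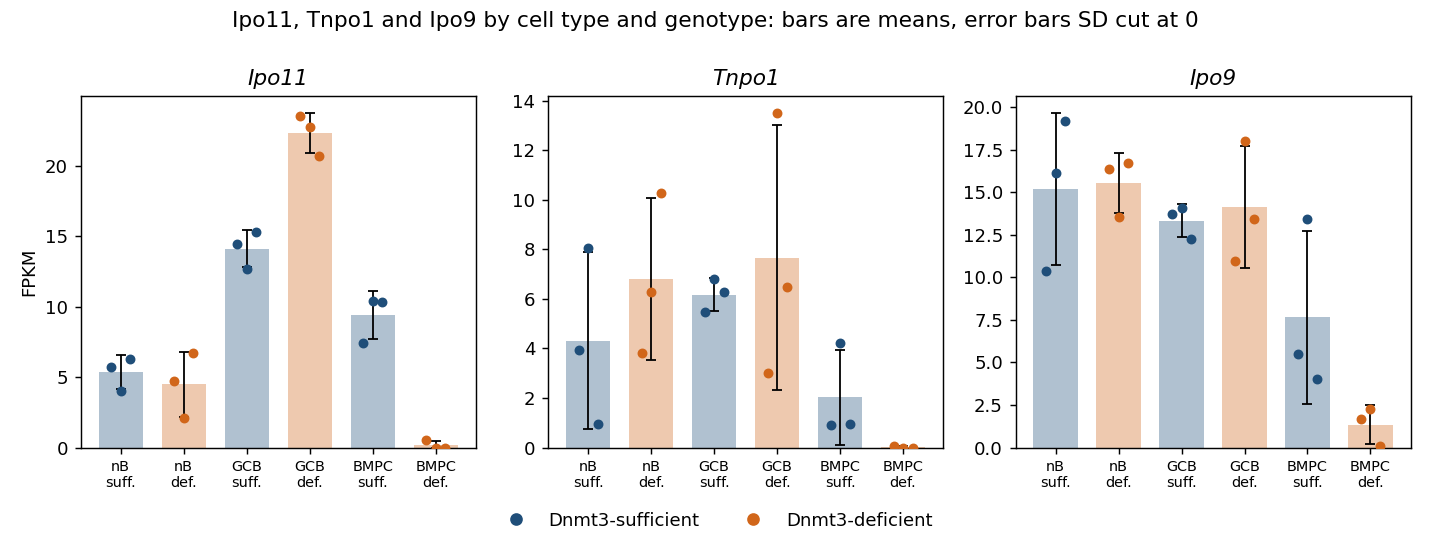
FPKM of Ipo11, Tnpo1 and Ipo9 in the 6 groups, with points for the 3 libraries, bars for their mean and error bars for the SD, drawn no lower than 0. Ipo11 in deficient libraries lies above the sufficient ones in GCB (20.7 to 23.5 against 12.7 to 15.3) and below them in BMPC (0 to 0.509 against 7.42 to 10.4).

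The order of the 6 groups by mean level differed among the receptors. For Ipo11 it ran from deficient GCB (22.3 FPKM) through sufficient GCB (14.1), sufficient BMPC (9.38), sufficient nB (5.35) and deficient nB (4.49) to deficient BMPC (0.17), and only the nB groups overlapped among neighbours. For Kpna2 both GCB groups came first, then both BMPC groups and then both nB groups, and the genotypes overlapped in BMPC and nB. For Tnpo1, neighbouring groups overlapped everywhere except between sufficient (2.02 FPKM) and deficient BMPC (0.025 FPKM). For Tnpo3, Ipo7 and Xpo1 no neighbouring groups were separate.

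The rest of the transport system was described with lists of other importins, other exportins, genes of the Ran cycle, nucleoporins and cargo. From nB to GCB, 4 of 7 Ran cycle genes rose and 0 fell. They were Rcc1, the exchange factor that loads Ran with GTP (2.67, SE 0.63), Ranbp1 (2.34, SE 0.21), Ran itself (1.88, SE 0.13) and Nutf2, which returns Ran to the nucleus (1.67, SE 0.21). Of 29 nucleoporins, 5 rose and 0 fell, among them the membrane nucleoporin Ndc1 (3.86, SE 0.58), Nup37 (2.72, SE 0.47) and Nup107 (2.14, SE 0.36), the last a scaffold subunit of the pore. Of the other importins, 0 of 7 tested passed in either direction, and of the other exportins 1 of 7 did, Ranbp17, at 0 in all nB libraries and at 0.258 to 2.04 FPKM in GCB. Of 13 cargo genes 1 rose and 2 fell: Hnrnpa1 (1.61, SE 0.33) was higher, at 0.427 to 1.58 FPKM in nB and 2.78 to 6.45 in GCB, and Srsf2, cargo of Tnpo3 (-1.64, SE 0.13), was among the lower. Hnrnpa1 is known for many processed copies in the genome, so its counts are uncertain. The background was 9.47% higher and 12% lower.

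From GCB to BMPC, where 33.7% of all tested genes were lower and 7.72% higher, 22 of 29 nucleoporins fell and 1 rose, with Ndc1 (-4.15, SE 0.58), Rae1 (-3.50, SE 0.48), Nup93 (-3.39, SE 0.68) and Nup205 (-3.06, SE 0.48) the largest changes, and the median was -1.73 against -0.66 for all tested genes. Of the Ran cycle genes 3 of 7 fell, namely Rcc1 (-3.24, SE 0.63), the GTPase activator Rangap1 (-3.19, SE 0.59) and Ranbp3 (-1.65, SE 0.52). Ran itself measured 250 to 611 FPKM in BMPC, 494 to 614 in GCB and 108 to 197 in nB. It was 0.44 lower (SE 0.13) in BMPC than in GCB (limma, adjusted p = 0.00901), less than the size a call needed, and 1.44 higher (SE 0.13) in BMPC than in nB (limma, adjusted p = 9.16e-08). Of the other importins 3 of 7 fell (Kpna1, Kpna4 and Ipo13), and of the other exportins 5 of 7 did, among them Cse1l, which returns importin alpha to the cytoplasm (-3.15, SE 0.58). Of the cargo genes 8 of 13 fell and 1 rose, with Taf15 (-2.63, SE 0.44), cargo of Tnpo1, and Ube2e1 (-2.43, SE 0.62), of the family carried by Ipo11, the largest changes. The gene that rose was Srsf2 (1.59, SE 0.13), cargo of Tnpo3. Ube2e3 (-0.18, SE 0.92) and Rpl12 (0.68, SE 0.13), also cargo of Ipo11, were not called. These averages cover libraries far apart. Ube2e1 measured 0, 0.190 and 0 FPKM in sufficient and 40.2, 19.7 and 0.318 in deficient BMPC. Cse1l measured 36.8, 23.6 and 43.5 FPKM in sufficient and 32.8, 0.959 and 0.115 in deficient BMPC. From nB to BMPC, 11 of 29 nucleoporins, 3 of 7 Ran cycle genes, 3 of 7 other importins, 4 of 7 other exportins and 6 of 13 cargo genes fell, beside 39.3% of genes in general, and 1, 3, 0, 0 and 0 rose. By genotype, 0 genes of these lists passed in nB or GCB. In BMPC, where 3.98% of all tested genes were called, 1 nucleoporin was called higher (Nup54, 1.45, SE 0.38) and 1 lower (Nup210, -1.90, SE 0.43). One Ran cycle gene (Nutf2, -1.31, SE 0.30) and 1 other exportin (Cse1l, -3.04, SE 0.81) were called lower and 1 cargo gene (Ube2e1, 3.29, SE 0.87) higher. Ran had a difference of -0.90 (SE 0.18), and the median difference was -0.80 for nucleoporins, -0.90 for the Ran cycle and -0.05 for all tested genes.

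**Figure D4:**
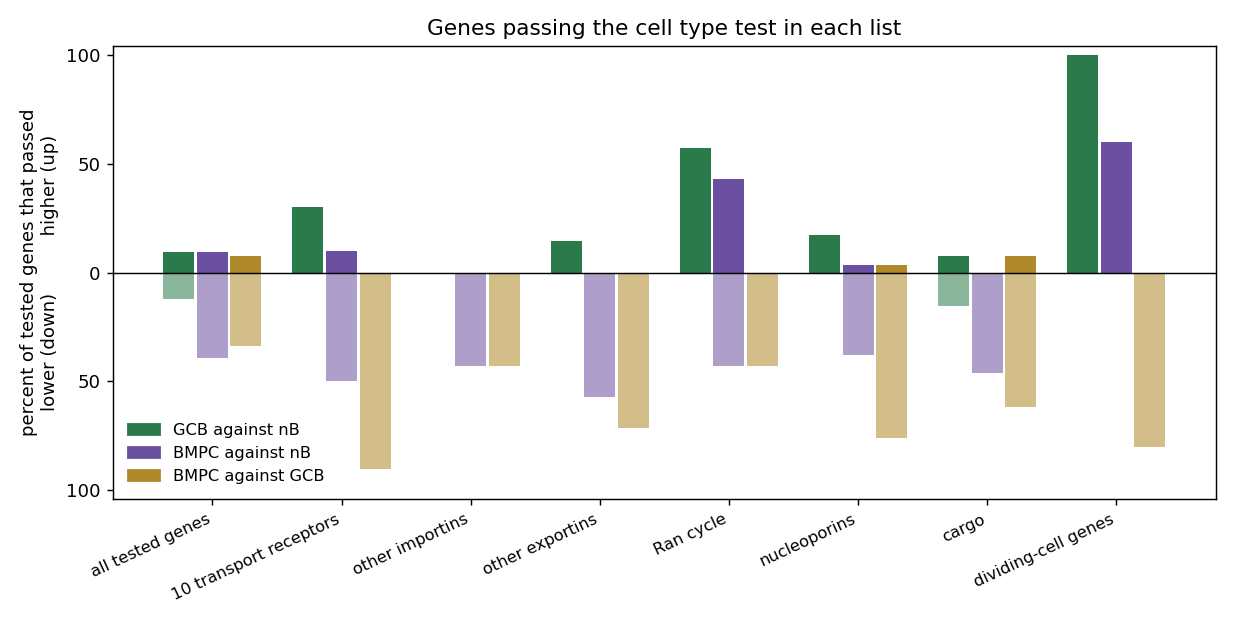
Percent of the tested genes of each list that passed as higher (bars upward) or lower (pale bars downward) in the 3 cell type comparisons, averaged over both genotypes. In BMPC against GCB, 9 of 10 receptors and 22 of 29 nucleoporins passed as lower beside 33.7% of all tested genes. Tnpo1 and Ipo11, among the 9, were chosen for low values in deficient BMPC. With the Dnmt3-sufficient libraries alone 3 receptors passed as lower.

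Over the 18 libraries, the genes whose log2(FPKM + 1) was most like that of Ipo11 were Vps45 (Pearson r = 0.94), Haus6 (0.932), Fh1 (0.924), Chek2 (0.922) and Mrps7 (0.908), where the median over all tested genes was 0.199. For Tnpo1 they included Szrd1 (0.893), Ap2a1 (0.882), Pdlim7 (0.881) and Naa25 (0.88), with a median of 0.311. Among the receptors, Tnpo1 was most like Ipo9 (0.83) and Ipo11 was most like Ipo9 (0.716), while Tnpo1 and Tnpo2 had an r of 0.477. These 18 points fall into 6 groups and share the difference in depth between BMPC and the other cell types, so the values describe likeness over these libraries and carry no test.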

How the data were processed

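The authors sorted 5000 cells per sample, amplified cDNA, mapped read pairs to mm9 with TopHat (at most 1 placement per read) and counted reads over exons of UCSC KnownGenes. Strand use in counting is not stated. The deposited FPKM values are these counts divided by exon length and by the reads counted on the listed genes. Submitters' notes name R 3.2.2 and edgeR 3.12.1. The table also holds the authors' edgeR fold changes, p-values and FDR, which were not used, and 0 columns of no sample. Of the immunoglobulin genes this denominator holds Jchain and Igll1 alone, and the rest were not analysed here.

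Reads and depth were recovered, since FPKM multiplied by exon length came out as a whole number of reads (tolerance 0.01) for 100% of values. Amplified reads do not stand for independent molecules, and the floor of 3 reads covers counting error alone. Groups were compared with limma 3.58.1 (R 4.3.3) with an intensity trend on log2(FPKM + 1), 1 mean per group over all 18 libraries, two-sided, with Benjamini-Hochberg adjustment over the 11522 genes above 1 FPKM in at least 2 libraries. Replicates are separate samples, pooled from several mice in GCB, and 3 against 3 by exact permutation cannot go below p = 0.1. Named genes were all 10 receptors, up to 4 called genes per list and comparison with the largest changes, and the 5 genes most like Tnpo1 and Ipo11. Some further cargo genes of Tnpo3 and Ipo11 were named beside these. Copies were searched with blastn 2.17.0 (50 bases or more, identity of 96% or more). The receptors and lists were chosen with earlier results of these data known. Alternatives were a pseudocount of 0.1, no filter, median of ratios scaling, cell types alone, sex as covariate, library weights, voom on recovered reads, the GCB labels as a block, each genotype alone and leaving out each library. The scripts were tested on simulated data. Some genes that these rules name are not reported here.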

Additional observations from a re-analysis of the deposited data

Results flagged for a closer look

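Ipo11 in the deficient libraries lay above the sufficient ones in GCB and below them in BMPC. In GCB every deficient library was above every sufficient one, a difference of 0.63 on the log2(FPKM + 1) scale that did not pass (limma, adjusted p = 1), and in BMPC every deficient library was below every sufficient one, a difference of -3.16. Genotypes were separate in the same way, in either direction, for 10.6% of tested genes in GCB and 10.3% in BMPC. This difference between the cell types was not tested, since the BMPC values chose the gene.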

How the results depend on the processing

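All 28 alternatives were run for the 3 cell type comparisons. Of 18 called differences between cell types, those of Kpna2 (3), Tnpo3 (2), Ipo11 from nB to GCB and Xpo1 from GCB to BMPC passed in all 28. With the sufficient libraries alone, receptors called fell to 3 in BMPC against nB and to 3 in BMPC against GCB, genes called to 1547 in GCB against nB and to 2933 in BMPC against GCB, and Ipo7 from nB to GCB (-0.026) and Ipo11 from nB to BMPC (0.71) changed sign. With the deficient libraries alone, 1434 genes were called in GCB against nB. Genes called by genotype in nB (6) were 3 with a pseudocount of 0.1, 14 without a filter, 0 with nB alone, 11 with library weights and 4 to 13 with a library left out. In GCB (0) they were 3 with weights, 2 with voom and 0 to 2 with a library left out. In BMPC (459) they were 297 without a filter, 0 with BMPC alone, 18 with weights, 262 with voom and 327 to 922 with a library left out, and the 2 receptors became 1 under median of ratios scaling, 0 with BMPC alone, 0 with weights, 1 with voom and 1 to 3 with a library left out. GCB libraries of the 2 genotypes that shared a label (F2, F3 or M1) had correlations of deviations from group means of -8.06e-05, -0.0171 and 0.0257. With 3 libraries per group these values cannot show whether the labels mark pairs, and the main fit left the labels out. With the labels as a block, the BMPC counts were 251 genes and 1 receptor, although only GCB libraries carry the labels. Differences that passed nowhere changed sign when 1 library was left out, for Tnpo2 from nB to GCB (-0.058 to 0.36), Kpnb1 from nB to BMPC (-0.65 to 0.014), in nB by genotype for Tnpo3 (-0.14 to 0.32), Ipo9 (-0.17 to 0.24), Ipo11 (-0.58 to 0.079) and Kpnb1 (-0.38 to 0.044), and in GCB by genotype for Tnpo1 (-0.39 to 0.54), Tnpo3 (-0.0052 to 0.19), Ipo9 (-0.12 to 0.21), Kpnb1 (-0.31 to 0.10) and Xpo1 (-0.11 to 0.37). In BMPC by genotype, Tnpo2 (-0.052 to 0.80), Tnpo3 (-0.35 to 0.62), Ipo5 (-1.72 to 0.53) and Kpnb1 (-0.61 to 0.73) also changed sign when 1 library was left out. The cause of these changes was not tested.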
